A study of Homo sapiens with 9 samples.

Results

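Metallothioneins are small, cysteine-rich proteins that hold zinc and copper, and hepatocytes make them at high levels. The 8 metallothionein genes measured here (MT1E, MT1F, MT1G, MT1H, MT1HL1, MT1M, MT1X and MT2A) were examined together with MTF1, the zinc-sensing transcription factor that switches metallothionein genes on, and SLC30A1, the exporter that carries zinc out across the plasma membrane. They were represented by 18 probe sets, which are the groups of short oligonucleotides that read a transcript, out of 54613 on the array, and are 10 of 19775 genes with a probe set of their own. Each one is mapped by the platform annotation to 1 of these 10 symbols and to no other gene. The genes were chosen by name, to ask whether a metal response was seen, and with earlier results of these data known, among them the high MT1M level after SPTLC123 siRNA. Their values are therefore given as a description. Where one of them is said below to be called, this states its place in the fit across all probe sets, and it is no independent test, since these arrays also led to the choice of genes.

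The cells were Huh7, an established line from a human liver cancer. They received 1 of 3 siRNAs, with 3 arrays per treatment that the labels give as biological replicates. The scramble group received a control siRNA, the SPTLC123 group siRNA against subunits of serine palmitoyltransferase, the enzyme that starts sphingolipid synthesis, and the DEGS1 group siRNA against the desaturase that turns dihydroceramide into ceramide. Every group, scramble included, was transfected at a final 20 nM siRNA with a lipid reagent and later given conditioned medium low in serum. The sampling time is given as 72 h in the labels, but their protocol has that medium going on at 72 h and the harvest 24 h later. Nothing in the labels speaks of zinc, copper or cadmium being added.

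In a metal response, zinc binds MTF1, and MTF1 then binds short metal response elements in front of its target genes. Metallothionein genes and SLC30A1 are its best known targets, so that both the storage and the export of zinc go up together. Metallothionein genes also respond to glucocorticoids and to oxidative stress, and MTF1 is regulated mainly as a protein rather than through its transcript level.

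The RefSeq promoter table (GRCh38.p14) matched 5 of the 10 genes: MT2A, MT1X, MT1H, SLC30A1 and MTF1. The 250 bases before the annotated start are shown for the 4 of these that hold the metal response element core, since the element is the known link between MTF1 and its target genes. Capitals mark every match to TGCACNC or TGCGCNC on either strand (GNGTGCA or GNGCGCA when read on the strand shown). All sequences run 5′ to 3′ along the gene's strand, for MT2A at chr16:56608334-56608583 (plus strand), MT1X at chr16:56682220-56682469 (plus), MT1H at chr16:56669564-56669813 (plus) and SLC30A1 at chr1:211579162-211579411 (minus).
MT2A: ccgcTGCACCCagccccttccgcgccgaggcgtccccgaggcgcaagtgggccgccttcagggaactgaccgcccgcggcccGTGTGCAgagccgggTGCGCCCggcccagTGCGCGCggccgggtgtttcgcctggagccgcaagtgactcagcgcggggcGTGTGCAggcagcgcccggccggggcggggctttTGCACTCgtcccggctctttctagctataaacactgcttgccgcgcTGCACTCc
MT1X: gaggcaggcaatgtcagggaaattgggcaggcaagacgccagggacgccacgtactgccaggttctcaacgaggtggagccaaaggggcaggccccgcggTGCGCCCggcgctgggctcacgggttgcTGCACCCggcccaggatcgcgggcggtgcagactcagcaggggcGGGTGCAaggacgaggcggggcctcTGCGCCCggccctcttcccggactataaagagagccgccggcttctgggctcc
MT1H: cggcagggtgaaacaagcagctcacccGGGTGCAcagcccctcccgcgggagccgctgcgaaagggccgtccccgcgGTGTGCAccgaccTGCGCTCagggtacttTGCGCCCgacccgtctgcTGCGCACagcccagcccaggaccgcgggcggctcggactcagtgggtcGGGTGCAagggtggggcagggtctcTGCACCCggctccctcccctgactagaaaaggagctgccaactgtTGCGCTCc
SLC30A1: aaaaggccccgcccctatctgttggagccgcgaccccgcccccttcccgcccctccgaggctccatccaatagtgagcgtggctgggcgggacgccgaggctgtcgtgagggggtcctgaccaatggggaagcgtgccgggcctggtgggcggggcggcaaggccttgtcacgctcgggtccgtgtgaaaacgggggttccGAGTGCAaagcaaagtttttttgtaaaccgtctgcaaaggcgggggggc

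MT1H held 8 matches, MT2A 7, MT1X 4 and SLC30A1 1, and MTF1 held 0 in its own 250 bases at chr1:37859593-37859842 (minus strand). Over all 35114 promoter windows of that length in the table, 24.8% held at least 1 match, 0.208% at least 4, 0.0228% at least 7 and 0.0142% at least 8. MT1H and MT1X shared a pair of positions, at 78 to 72 and at 53 to 47 bases before the start, and MT1H and MT2A shared the one at 8 to 2 bases before it. The 5 windows were rich in G and C, from 66.4% to 73.2%, and the comparison with all promoters was not matched for this. A match is a run of letters and was not tested as a site of binding. Metallothionein genes are known targets through this element, so its presence before them was foreseen and is no new support.

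**Figure D1:**
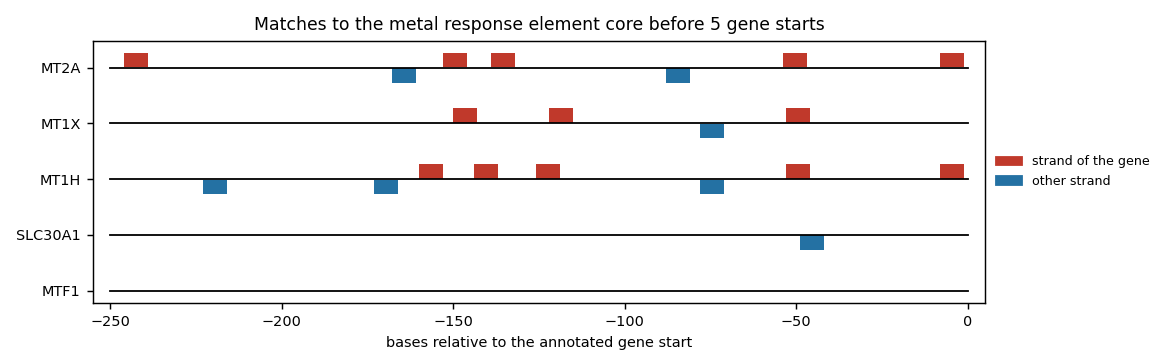
Matches to the metal response element core in the 250 bases before the annotated start of 5 genes, with distance from the start in bases on the x axis; boxes above a line are on the gene's strand and boxes below it on the other strand. The 3 metallothionein genes hold 4 to 8 matches, SLC30A1 holds 1 and MTF1 holds 0.

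In the RefSeq gene order, 7 of the metallothionein genes lie in 1 run on chromosome 16, in the order MT2A, MT1E, MT1M, MT1F, MT1G, MT1H and MT1X with other metallothionein genes and pseudogenes among them. MT1HL1, a copy related to MT1H, lies on chromosome 1, as do MTF1 and SLC30A1. Of the 12 metallothionein probe sets, 10 carry the Affymetrix suffix x_at, which marks probes that also match other sequences. Metallothionein transcripts are near-identical in large parts, so the signal of these 10 can be shared among the genes and is uncertain as to which gene it came from. MT1M and the second MT1G probe set are the ones without that suffix.

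Deposited intensities were taken on the log2 scale, compared in 1 linear model (limma) over all 9 arrays, and a probe set is said to be called where its Benjamini-Hochberg adjusted p over all 54613 probe sets was under 0.05. The measured siRNA targets were lower where the labels name them, and the remaining serine palmitoyltransferase subunit was not analysed here. Against scramble, SPTLC1 differed by −2.27 log2 units in SPTLC123 (limma, adjusted p = 3.42e-05) and SPTLC2 by −1.05 (adjusted p = 0.00154), and DEGS1 differed by −3.73 in DEGS1 (adjusted p = 3.28e-05). All 7 hepatocyte markers examined, ALB and AFP among them, had mean levels of 11.21 or more, and the leukocyte marker PTPRC had 3.54, under the median over every probe set (4.86). Of 6 measured markers of other liver cells 5 lay above that median by their brightest probe set, EPCAM highest at 10.61. The dimmer probe sets of KRT7 (3.05 to 4.35) and ACTA2 (2.94 and 3.23) lay under it. Those of COL1A1 (2.75 to 4.99) and PECAM1 (3.49 to 7.14) lay on both sides of it. EPCAM was 0.57 higher in SPTLC123 than in scramble, whereas TTR differed by −1.03 and APOA1 by −0.46 there (limma, adjusted p = 0.0201, 0.0172 and 0.0227). The part of cell composition or differentiation in the metallothionein values was not tested.

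Array quality was uneven. The difference between the 3′ and 5′ control probe sets for actin was 0.405 to 0.562 log2 units on 6 arrays but 1.15 on SPTLC123 array 3, 1.31 on DEGS1 array 2 and 1.25 on DEGS1 array 3, which is a sign of weaker 5′ signal. No scramble array was among these 3, and values without them are given below where they matter. In that setting DEGS1 keeps 1 array, taken to have the spread of the remaining groups.

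Metallothionein signal was highest after SPTLC123 siRNA. All 10 x_at probe sets had the same order of group means, with SPTLC123 above DEGS1 and DEGS1 above scramble. SPTLC123 and scramble did not overlap in 9 of the 10, the exception being MT2A, whereas neither SPTLC123 and DEGS1 nor DEGS1 and scramble were separated in any of them. Over all probe sets, SPTLC123 lay above scramble without overlap in 10.5%. DEGS1 lay above scramble in 10.5% and below SPTLC123 in 9.48%, again without overlap. The 10 can share signal, so they are not separate observations. The median difference over these 10 probe sets was 1.10 log2 units for SPTLC123 against scramble and 0.33 for DEGS1 against scramble, beside −0.02 and −0.003 over all probe sets. The spread between arrays of a group was wide. In a bulk measurement such as this, fewer cells with a transcript and less transcript per cell cannot be told apart.

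**Figure D2:**
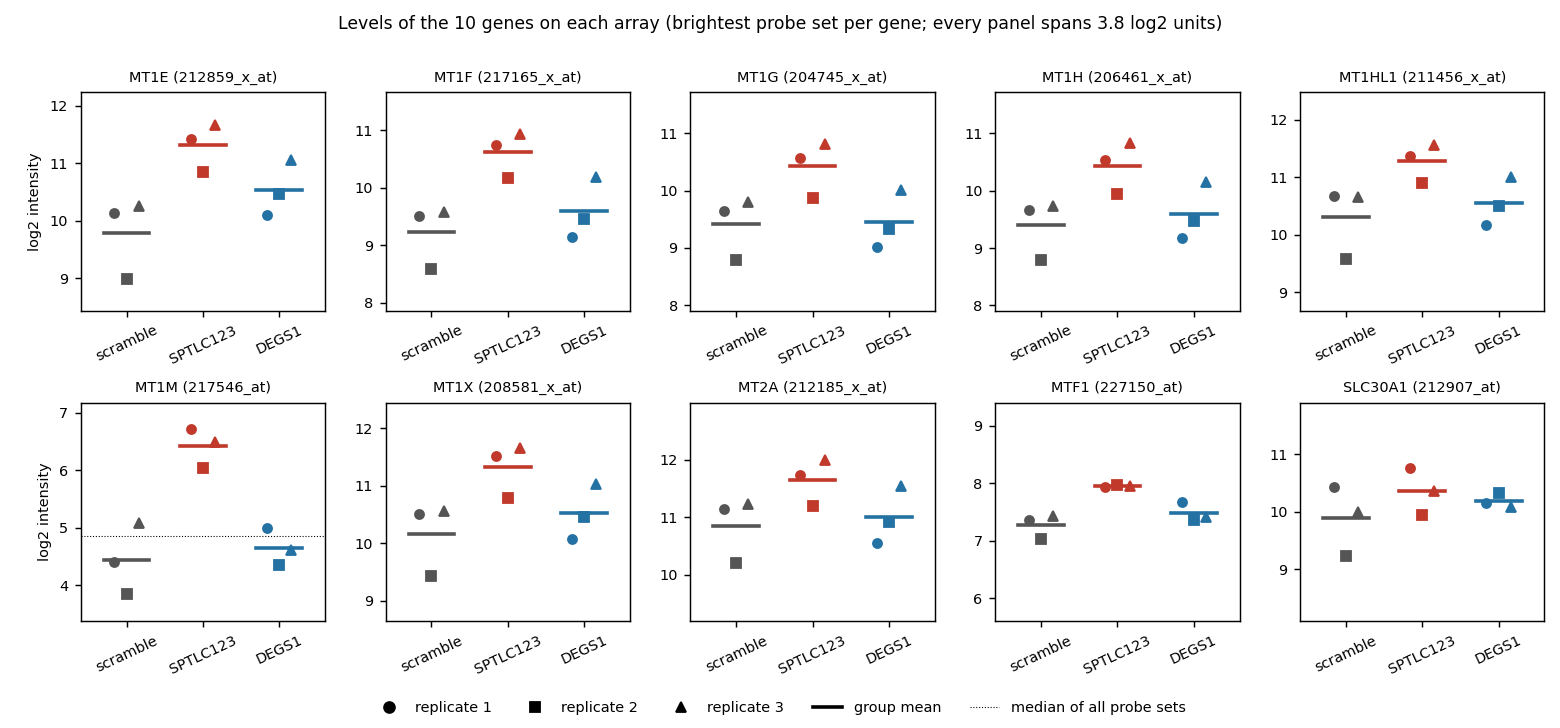
Log2 intensity (y axis) on each array for the brightest probe set of each of the 10 genes, by siRNA group (x axis); marker shape gives the replicate number, bars the group means, the dotted line in the MT1M panel the median of all probe sets, and every panel spans the same number of log2 units. SPTLC123 arrays lie above all scramble arrays for MT1E, MT1F, MT1G, MT1H, MT1HL1, MT1M, MT1X and MTF1, and overlap them for MT2A and SLC30A1.

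MT1M, an MT1 isoform read by a probe set of its own, showed the widest gap. Its log2 intensity was 4.40, 3.84 and 5.08 on scramble arrays 1 to 3, 6.72, 6.04 and 6.49 on the SPTLC123 arrays, and 4.99, 4.35 and 4.62 on the DEGS1 arrays. The 3 SPTLC123 arrays lay above all 6 others, while DEGS1 and scramble overlapped. Group means were 4.44 ± 0.62 (SD, n = 3), 6.42 ± 0.34 and 4.65 ± 0.32, in the same order. MT1M was thus 1.98 ± 0.30 log2 units (SE) higher in SPTLC123 than in scramble, and was called. The scramble mean lay under the median of all probe sets (4.86), so no fold is given.

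Several of the MT1M values were close to background. Its signal exceeded the median of all probe sets on 5 of 9 arrays. DEGS1 differed from scramble by 0.21 ± 0.30, or −0.09 without scramble array 2, and was not called. DEGS1 differed from SPTLC123 by −1.76 ± 0.30, which was called. Over 20 alternative settings of the same arrays the SPTLC123 difference from scramble ran from 1.68 to 2.30. The DEGS1 call against SPTLC123 was lost without SPTLC123 array 1, DEGS1 array 2 or DEGS1 array 3 (differences from −1.75 to −1.61), and without the 3 arrays of weak 5′ signal (−1.39).

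MT1F was read by a pair of x_at probe sets. The dimmer of them, the one called, gave 9.10, 8.12 and 9.18 in scramble, 10.69, 10.02 and 10.99 in SPTLC123, and 8.97, 9.36 and 10.18 in DEGS1. All SPTLC123 values lay above all scramble values, with a difference of 1.77 ± 0.38 or 3.41-fold. The call was lost without any of the scramble arrays, without SPTLC123 array 1 or 3 and without DEGS1 array 2, with differences between 1.43 and 1.96 in these settings. The brighter MT1F probe set read 9.51, 8.58 and 9.58 in scramble, 10.75, 10.17 and 10.93 in SPTLC123, and 9.14, 9.46 and 10.19 in DEGS1. Its difference from scramble of 1.39 ± 0.34 was not called.

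MT1E, which lies next to MT1M in the gene run, had the largest difference among the x_at probe sets that were not called. Its brighter probe set read 10.12, 8.99 and 10.25 in scramble, 11.42, 10.85 and 11.67 in SPTLC123, and 10.10, 10.47 and 11.06 in DEGS1. The SPTLC123 arrays again lay above the scramble arrays, by 1.53 ± 0.37. DEGS1 lay between them, 0.75 ± 0.37 above scramble and 0.35 above it without scramble array 2, and overlapped both. The other MT1E probe set ranged from 8.37 to 10.29, with a difference of 0.95 ± 0.30 for SPTLC123 against scramble.

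MT1X, one of the main MT1 isoforms, gave 10.51, 9.43 and 10.56 in scramble, 11.51, 10.78 and 11.66 in SPTLC123, and 10.07, 10.45 and 11.04 in DEGS1. SPTLC123 lay 1.15 ± 0.36 above scramble without overlap, although the margin between the lowest SPTLC123 array and the highest scramble array was small. Its other probe set differed by 1.32 ± 0.42. MT2A, the isoform that is usually the most abundant in human cells, gave 11.14, 10.20 and 11.23 in scramble, 11.74, 11.19 and 11.99 in SPTLC123, and 10.55, 10.92 and 11.54 in DEGS1. Its difference of 0.79 ± 0.34 was the lowest of the x_at probe sets, and SPTLC123 array 2 lay below scramble array 3. Without scramble array 2 the MT2A difference was 0.46.

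The other 3 metallothioneins had the same order of group means. MT1G read 9.64, 8.80 and 9.79 in scramble, 10.57, 9.88 and 10.82 in SPTLC123, and 9.02, 9.32 and 10.02 in DEGS1. MT1H read 9.65, 8.80 and 9.73, then 10.54, 9.95 and 10.82, then 9.17, 9.46 and 10.16. For both, the SPTLC123 arrays only just cleared the scramble arrays, and the differences were 1.01 ± 0.35 and 1.04 ± 0.33. MT1HL1 read 10.68, 9.58 and 10.66 in scramble, 11.37, 10.89 and 11.57 in SPTLC123, and 10.16, 10.50 and 11.00 in DEGS1, with a difference of 0.97 ± 0.32, or 0.61 without scramble array 2. None of these 3 was called. The MT1G probe set without the suffix stayed between 3.42 and 3.64 on all 9 arrays, below the median of all probe sets, and differed by −0.03 ± 0.09 between SPTLC123 and scramble.

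The arrays of a group departed from their mean together across the metallothionein genes. Scramble array 2 was the lowest scramble array in 10 of 10 x_at probe sets, at −0.86 to −0.60 log2 units from the group mean. SPTLC123 array 2 was the lowest of its group in 10 of 10 and DEGS1 array 1 the lowest of its group in 10 of 10. SPTLC123 array 3 and DEGS1 array 3, both with weak 5′ signal, were the highest of their groups in 10 of 10. DEGS1 array 2, which also had weak 5′ signal, was the highest of its group in 0 of 10. Scramble array 3, without it, was the highest in 8 of 10. The pooled SD within groups was 0.437 to 0.624 for these 10 probe sets, which placed them between the 94.3 and 97.6 percentiles of all probe sets, whose median SD was 0.149. Because the probe sets share cross-matching probes, the 10 are not separate observations of this pattern. Its part in the differences between groups was not tested.

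**Figure D3:**
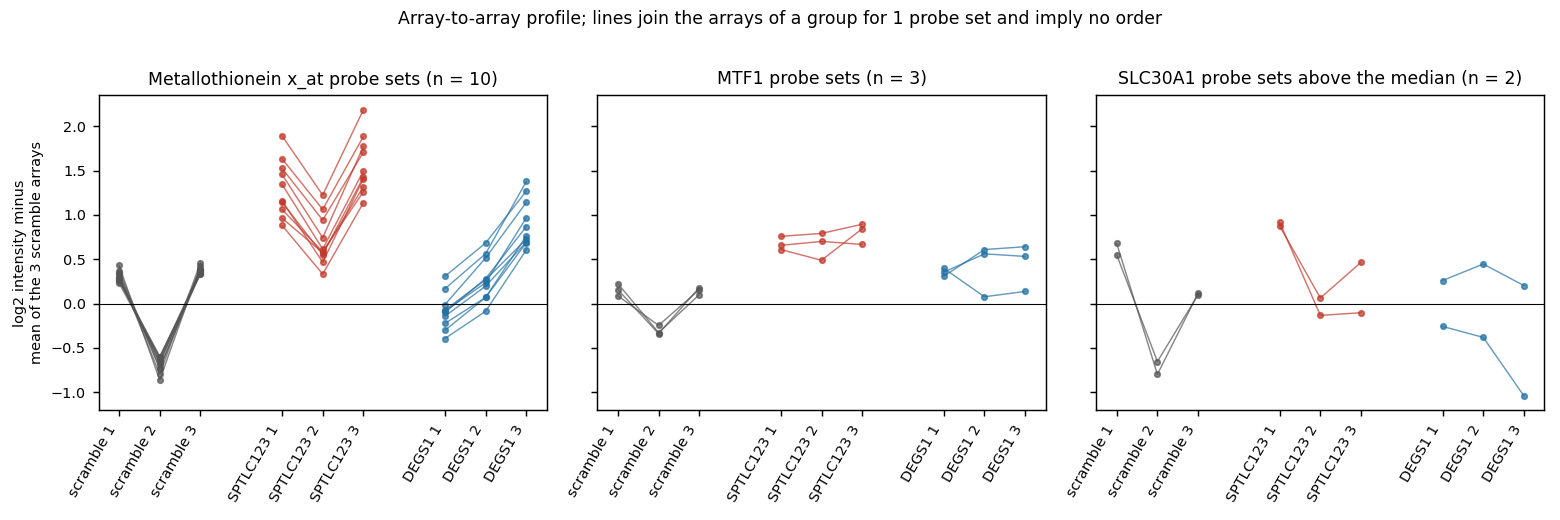
Log2 intensity minus the mean of the 3 scramble arrays (y axis) on each array (x axis) for the 10 metallothionein x_at probe sets, the 3 MTF1 probe sets and the 2 SLC30A1 probe sets above the median of all; lines join the arrays of a group for 1 probe set and imply no order. Scramble array 2 is the lowest scramble array in every line, and DEGS1 array 3 the highest DEGS1 array in all 10 metallothionein lines.

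After DEGS1 siRNA the 10 x_at probe sets lay between the other groups by mean, and overlapped both. Their differences from scramble ran from 0.04 for MT1G to 0.75 for MT1E, with SEs of 0.30 to 0.42, and none was called, which does not show that they stayed at the scramble level. The sign rested on 1 array for several of them. Without scramble array 2 the difference was −0.27 for MT1G, −0.10 for MT1H, −0.11 for MT1HL1, −0.18 for MT2A and −0.02 for the brighter MT1X probe set. Without the 3 arrays of weak 5′ signal it was below 0 for 8 of the 10, from −0.39 for MT1G, and 0.31 for the brighter MT1E probe set. Against SPTLC123, DEGS1 was lower in all 10, with differences of −1.07 to −0.63, no call and overlapping arrays.

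MTF1, the metal sensor, differed less in size but with narrower spread. Its brightest probe set gave 7.36, 7.03 and 7.43 in scramble, 7.93, 7.98 and 7.94 in SPTLC123, and 7.67, 7.35 and 7.41 in DEGS1. The SPTLC123 arrays stood above all 6 others, by 0.68 ± 0.13 against scramble, and this was called. The next one gave 7.19, 6.69 and 7.21 in scramble, 7.79, 7.82 and 7.92 in SPTLC123, and 7.38, 7.59 and 7.56 in DEGS1. Here the 3 groups were stacked without overlap, with SPTLC123 0.82 ± 0.14 above scramble, which was called, and DEGS1 0.48 ± 0.14 above it, which was not. The call of the first probe set was lost without any 1 of the 3 SPTLC123 arrays (0.66 to 0.68), and the difference of the next was 0.65 to 0.91 with any 1 array left out.

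The dimmest MTF1 probe set gave 6.95, 6.39 and 6.82 in scramble, 7.33, 7.21 and 7.57 in SPTLC123, and 7.03, 7.33 and 7.36 in DEGS1. Both siRNA groups lay above all scramble arrays, by 0.65 ± 0.16 and 0.52 ± 0.16, and neither was called. All 3 MTF1 probe sets thus placed SPTLC123 first and DEGS1 second by group mean. They set DEGS1 apart from SPTLC123 by unequal amounts. The difference between these groups was −0.47 ± 0.13, −0.33 ± 0.14 and −0.13 ± 0.16 for the probe sets in the order given, and none was called.

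SLC30A1, the zinc exporter and usual companion of metallothioneins in a metal response, gave no call in any comparison. Its brightest probe set read 10.44, 9.23 and 9.99 in scramble, 10.76, 9.95 and 10.35 in SPTLC123, and 10.15, 10.33 and 10.09 in DEGS1. All groups overlapped, with differences from scramble of 0.47 ± 0.29 for SPTLC123 and 0.30 ± 0.29 for DEGS1. These differences were within the spread between arrays, which does not show that SLC30A1 stayed level. Scramble array 2 was again the lowest, and without it the SPTLC123 difference was 0.14 and the DEGS1 difference −0.02. The next probe set ranged from 6.72 to 8.68 and differed by 0.23 ± 0.40 and −0.56 ± 0.40, or by −0.17 and −0.96 without scramble array 2. The dimmest stayed between 3.55 and 4.17 on all arrays, under the overall median.

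**Figure D4:**
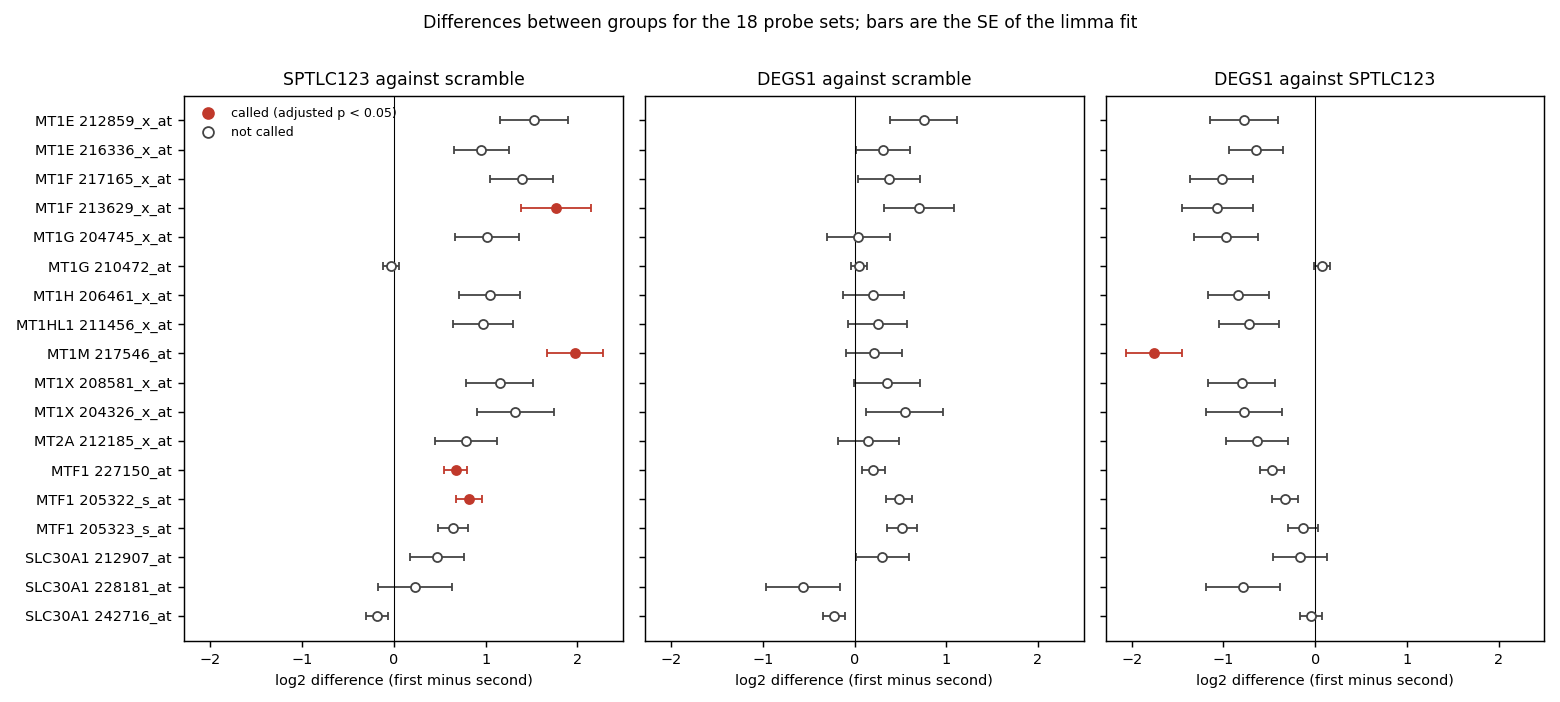
Log2 difference between group means (x axis) with its SE from the limma fit (bars) for each of the 18 probe sets (y axis) in the 3 comparisons; filled points were called at an adjusted p under 0.05. SPTLC123 against scramble holds 4 filled points, for MT1F, MT1M and a pair of MTF1 probe sets, DEGS1 against scramble none, and DEGS1 against SPTLC123 1, for MT1M.

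Counted over all 18 probe sets, 4 were called in SPTLC123 against scramble, all higher and from 3 genes, where 4.52% of all probe sets were called and 2.63% called higher. SPTLC123 lay above scramble without overlap in 13 of 18, against 10.5% of all probe sets, and below it in 1, the dim SLC30A1 probe set. In DEGS1 against scramble 0 were called by limma, where 3.42% of all were, and 2 had an unadjusted p under 0.05, beside 10576 of all 54613. That unadjusted count was 14 of 18 in SPTLC123 against scramble (8865 of all) and 7 of 18 in DEGS1 against SPTLC123 (9670 of all). Arrays of DEGS1 lay above scramble without overlap in 2 of 18, both of MTF1, against 10.5% of all. In DEGS1 against SPTLC123 1 was called, lower in DEGS1, where 3.69% of all were called and 2.11% called lower, and 4 lay lower without overlap, against 9.48% of all. Both comparisons with scramble use the same 3 scramble arrays. Nothing is read from these counts against the background, since the genes were chosen with such results known and share probes.

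By likeness of profile over the 9 arrays, the genes nearest to MT1M were YOD1 (Pearson r = 0.986), PAPSS2 (0.985), KAT7 (0.983), POP1 (0.978) and ANKRD46 (0.978). These were the top 5 of 12645 candidate genes, each by its brightest probe set. Only genes with a mean above the median of all probe sets were candidates, so dimmer genes were not considered. Their own differences between SPTLC123 and scramble were smaller, from 0.28 for YOD1 to 0.79 for POP1. No metallothionein was among them. For MT2A the nearest were MT1H (0.987), MT1HL1 (0.986), NOP14 (0.985), MT1X (0.984) and MT1G (0.981), 4 of which are metallothioneins that may share its probes. With 9 arrays in 3 groups and so many candidates, these values are a description.

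Of 71 other genes of metal handling or of pathways that also act on metallothioneins, 60 were measured. The rest had no probe set mapped to their symbol alone, which does not show that they were silent. They were MT1A, MT1B, MT1L, MT1JP, MT1DP, HSPA1A, HSPA1B, HSPA8, PER1, FTH1 and IREB2. In SPTLC123 against scramble 2 of the 60 were called higher and 3 lower, with a median difference of −0.02, against 2 and 5 in DEGS1 against scramble (median −0.14) and 2 and 4 in DEGS1 against SPTLC123 (median −0.11). Of all 19775 genes, each by its brightest probe set as in the lists, 6.42%, 5.16% and 5.37% were called in these comparisons. By limma, 18, 20 and 28 of the 60 had an unadjusted p under 0.05. Over all 54613 probe sets the counts were 8865, 10576 and 9670. That background, here and below, includes dim probe sets, while a list gene counts by its brightest, so the shares are not matched. Nothing is read from these counts, or from the totals of 5, 7 and 6 of 60, about the lists.

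None of the 10 other zinc exporters of the SLC30 family and its kin was called by limma in SPTLC123 against scramble, with 0 at an unadjusted p under 0.05 and a median of 0.06. In DEGS1 against scramble 0 were called by the brightest probe set and 1 had an unadjusted p under 0.05, beside 10576 of all 54613 probe sets. A dimmer probe set was called there for SLC30A7 (−0.45 ± 0.10, limma, adjusted p = 0.0441) and for SLC30A9 (−0.49 ± 0.09, adjusted p = 0.0185), whose brightest ones differed by −0.01 and −0.14. Both of these dimmer probe sets were also called lower in DEGS1 than in SPTLC123. By the brightest probe set 1 of the 10 was called in DEGS1 against SPTLC123, lower, where 5.37% of all genes were called. There 5 of the 10 had an unadjusted p under 0.05 in limma, beside 9670 of all 54613 probe sets. The called one was SLC30A5, which loads zinc into the secretory pathway. Its levels were 9.41, 9.53 and 9.31 on the SPTLC123 arrays and 8.91, 8.28 and 8.23 on the DEGS1 arrays, a difference of −0.94 ± 0.18 (limma, adjusted p = 0.0226). The 2 groups did not overlap, and all 4 other SLC30A5 probe sets had the same sign, 2 of them called. The call was lost without SPTLC123 array 1 or 2 or DEGS1 array 2 or 3 (differences from −0.95 to −0.82 without one of these), and without the 3 arrays of weak 5′ signal it was −0.56.

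Among 14 zinc importers of the SLC39 family 0 were called by limma in SPTLC123 against scramble, where 6.42% of all genes were called. An unadjusted p under 0.05 in limma was seen for 4 of the 14, beside 8865 of all 54613 probe sets. It was seen for 4 in DEGS1 against scramble (10576 of all) and for 9 in DEGS1 against SPTLC123 (9670 of all). In DEGS1 against scramble 2 were called, both lower, where 5.16% of all genes were called. SLC39A14, a liver importer of zinc and iron, read 12.46, 12.20 and 12.30 in scramble and 11.90, 11.55 and 11.59 in DEGS1, a difference of −0.64 ± 0.12 (limma, adjusted p = 0.0206). Every DEGS1 array lay below every scramble array. SLC39A3 differed by −0.40 ± 0.09 (adjusted p = 0.0428). SLC39A4, another importer, differed by −0.76 ± 0.14 in DEGS1 against SPTLC123 (adjusted p = 0.0178). Without the arrays of weak 5′ signal SLC39A14 differed by −0.42 and SLC39A3 by −0.42, neither called, and SLC39A4 by −1.05, still called. Leaving out 1 array ended the SLC39A14 call for scramble 1 or 3 and DEGS1 2 or 3 (−0.65 to −0.57), the SLC39A4 call for SPTLC123 1 or 2 and DEGS1 3 (−0.75 to −0.73), and the SLC39A3 call for any scramble array, SPTLC123 1 or 2 and DEGS1 2 or 3 (−0.43 to −0.35).

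The 2 other metallothioneins measured, MT3 and MT4, which belong to brain and squamous epithelium, were not called in any comparison by limma, with 0 at an unadjusted p under 0.05. They differed by 0.07 ± 0.13 and 0.08 ± 0.10 between SPTLC123 and scramble.

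Of 8 measured genes of metal and oxidative stress, HSPB1, a small heat shock protein, was called higher in SPTLC123 than in scramble, by 0.65 ± 0.14 (limma, adjusted p = 0.0332). It read 11.41, 11.79 and 11.42 in scramble and 12.17, 12.40 and 12.00 in SPTLC123, without overlap, and the call was lost without scramble 1 or 3, SPTLC123 1 or 2, or DEGS1 2 or 3 (0.54 to 0.66). The other 7 were not called there by their brightest probe set, where 6.42% of all genes were called. An unadjusted p under 0.05 in limma was seen for 5 of the 8, beside 8865 of all 54613 probe sets. The median of the 8 was 0.31. In DEGS1 against SPTLC123 it was seen for 5 of the 8 (9670 of all), with a median of −0.45. In DEGS1 against scramble it was seen for 2 (10576 of all), with a median of −0.03. Nothing is read from these counts, since the list was chosen with earlier results known. In SPTLC123 against scramble HSPH1, a large heat shock protein, differed by 0.86 ± 0.21 without overlap (limma, adjusted p = 0.0583). A dimmer HSPH1 probe set was called there (1.14 ± 0.25, limma, adjusted p = 0.0368). HMOX1, heme oxygenase, named after its values were seen, differed by −0.07 ± 0.20. GCLC, the catalytic subunit of the enzyme that limits glutathione synthesis, differed by −1.06 ± 0.15 in DEGS1 against SPTLC123 (adjusted p = 0.00689), and by −0.83, not called, without the arrays of weak 5′ signal. One other GCLC probe set was called lower too (−0.91), and a dim one differed by 0.15.

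Of 9 glucocorticoid-responsive genes measured, 1 was called higher and 1 lower in each comparison with scramble. Of all genes 6.42% and 5.16% were called there. Median differences of the 9 were −0.11 and −0.18. In SPTLC123 against scramble an unadjusted p under 0.05 in limma was also seen for FKBP5 (0.54 ± 0.15) and TAT (−0.34 ± 0.12). Nothing is read from these counts, and a glucocorticoid response was not tested. TSC22D3, a strongly glucocorticoid-induced gene, read 7.38, 8.55 and 8.17 in scramble, 5.94, 6.24 and 6.64 in SPTLC123, and 7.07, 6.63 and 6.54 in DEGS1. Both siRNA groups lay below scramble, with differences of −1.76 ± 0.29 (limma, adjusted p = 0.0108) and −1.29 ± 0.29 (adjusted p = 0.0493). The first call was lost only without SPTLC123 array 1 among the arrays left out singly (−1.59). The second was lost without scramble 2 or 3, SPTLC123 1 or 2 or DEGS1 2 or 3 (−1.29 to −1.03), and was −0.97 without the arrays of weak 5′ signal. Neither of its 2 other probe sets was called, and the dim one had the opposite sign in both comparisons (0.04 and 0.08).

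ZBTB16, another glucocorticoid-induced gene, went the other way. It read 6.72, 6.60 and 6.81 in scramble, 7.40, 7.36 and 7.64 in SPTLC123, and 7.25, 7.38 and 7.50 in DEGS1. Both siRNA groups were clear of scramble, by 0.76 ± 0.11 (adjusted p = 0.00555) and 0.67 ± 0.11 (adjusted p = 0.0141), and the first call held in 20 of 20 alternative settings. The second was lost without scramble 1 or 2 or DEGS1 2 or 3 (0.60 to 0.67) and without the arrays of weak 5′ signal (0.54). CEBPD, a transcription factor of the acute phase, was 0.72 ± 0.16 higher in DEGS1 than in SPTLC123 (adjusted p = 0.0475), a call that held in 11 of 20 alternative settings and was lost without scramble 3, any SPTLC123 array, or DEGS1 2 or 3 (0.65 to 0.78). Its other probe set, under the overall median, differed by −0.02.

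Copper genes gave 1 call, COX17, a copper chaperone for the mitochondria, which was 0.44 ± 0.10 higher in DEGS1 than in scramble and 0.43 ± 0.10 higher than in SPTLC123 (limma, adjusted p = 0.0436 and 0.0453). Its signal was under the overall median, and these calls held in 4 of 19 and 5 of 19 alternative settings. Both were lost without any 1 array other than DEGS1 1 (0.37 to 0.50 and 0.36 to 0.47).

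Iron genes included the smallest adjusted p of these lists, the siRNA targets apart. SLC40A1, the iron exporter ferroportin, read 10.74, 10.96 and 10.89 in scramble, 10.41, 10.22 and 10.40 in SPTLC123, and 9.55, 9.18 and 9.37 in DEGS1. The 3 groups did not overlap. DEGS1 differed from scramble by −1.50 ± 0.12 (limma, adjusted p = 0.000622), which held in 20 of 20 alternative settings, and from SPTLC123 by −0.98 ± 0.12 (adjusted p = 0.00258), which was lost without the arrays of weak 5′ signal (−0.77). SPTLC123 differed from scramble by −0.52 ± 0.12 (adjusted p = 0.0368), a call that was lost without any scramble or SPTLC123 array or DEGS1 3 (−0.58 to −0.46). Its other, dimmer probe set was not called and differed by −0.22 in that comparison, but by 0.06 and 0.29, the opposite sign, in DEGS1 against scramble and against SPTLC123. TF, the transferrin gene, differed by −0.37 ± 0.08 in SPTLC123 against scramble (adjusted p = 0.0401), and TFRC, the transferrin receptor, by −0.46 ± 0.10 in DEGS1 against scramble (adjusted p = 0.0374). Each of these held in 7 of 20 alternative settings. The TF call was lost without any 1 array other than DEGS1 1 (−0.42 to −0.31), and the TFRC call without any 1 array other than SPTLC123 3 or DEGS1 1 (−0.52 to −0.41). For both, a probe set under the overall median had the opposite sign (0.24 for TF and 0.19 for TFRC).

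**Figure D5:**
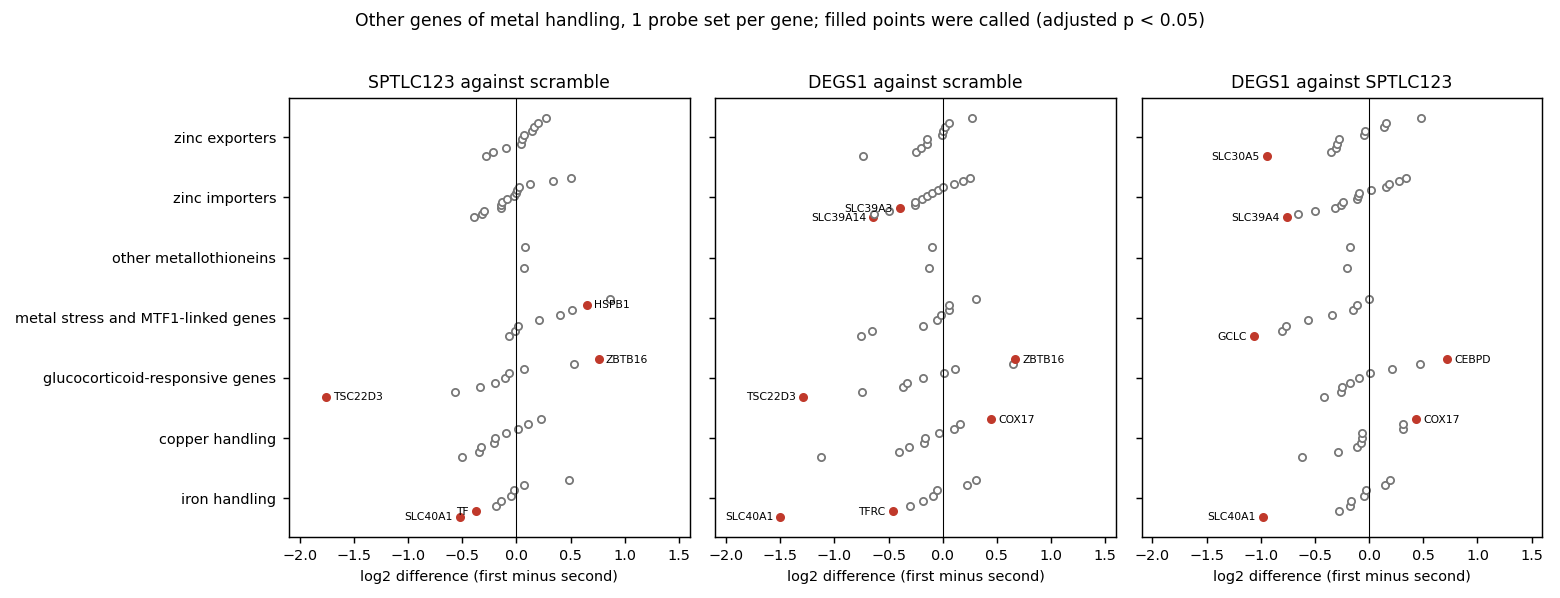
Log2 difference between group means (x axis) for 60 genes of 7 lists (y axis), 1 probe set per gene, in the 3 comparisons; filled points were called at an adjusted p under 0.05 and are named. No zinc exporter or importer is filled in SPTLC123 against scramble by the probe set plotted, and SLC40A1 is filled in all 3 panels.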

How the data were processed

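The deposited table holds 1 normalized intensity per probe set and array on a linear scale (4.88 to 27330.59, array medians 27.92 to 30). The submitters' processing notes name RMA, GCRMA 2.12.1 and limma 2.14.7 and say nothing of what each did, so whether RMA or GCRMA made the intensities is unknown. Arrays have no read depth, and their number limits the precision. Without the 62 controls, 54613 of 54675 probe sets were tested. The platform annotation gives 41091 of these 1 symbol, 1801 several and 11721 none, and all 18 probe sets studied matched RefSeq by gene number and symbol.

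Values were log2-transformed without a pseudocount and fitted by lmFit and eBayes of limma 3.58.1, run in R 4.3.3, with 1 mean per group over all 9 arrays (6 residual degrees of freedom), two-sided, with Benjamini-Hochberg adjustment over all probe sets. The script was tested on simulated data. The labels call the arrays biological replicates without naming separate cultures, so errors measure the spread between these samples.

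The genes, the gene lists and the setting without the 3 arrays of weak 5′ signal were chosen with earlier results of these data known. Array values are given for the brightest probe set of each gene studied and for any other probe set called; from each list, up to 3 called genes with the smallest adjusted p per comparison are named; for MT1M and MT2A, the 5 genes with the highest Pearson r are named. A list gene counts by its brightest probe set. Alternatives were 1 probe set per gene, dim probe sets left out, median centring, quantile normalization, robust moderation with a variance trend (statmod 1.5.0), only the groups compared, array weights, a threshold of 0.01, a replicate block, the actin difference as covariate, and arrays left out.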

Additional observations from a re-analysis of the deposited data

How the results depend on the processing

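Calls among the 18 probe sets for SPTLC123 against scramble (4) became 7 with dim probe sets left out, with median centring, with array weights and with the actin covariate, and 1 at a threshold of 0.01; leaving out 1 array gave 2 to 7. For DEGS1 against scramble (0) array weights gave 2, and leaving out 1 array 0 to 2. For DEGS1 against SPTLC123 (1) there were 2 with 1 probe set per gene and with array weights, 4 with the covariate, 0 at 0.01 and 0 without the arrays of weak 5′ signal, and leaving out 1 array gave 0 to 2. Among the 60 list genes, SPTLC123 against scramble (5) gave 10 with 1 probe set per gene and with the covariate, 8 with dim probe sets left out, 9 with array weights and 1 at 0.01, and 1 to 7 when 1 array was left out. DEGS1 against scramble (7) gave 12 with 1 probe set per gene, 4 with median centring, 2 with only the groups compared, 16 with array weights, 1 at 0.01, 3 with the covariate and 1 without the arrays of weak 5′ signal, and 1 to 17 when 1 array was left out. DEGS1 against SPTLC123 (6) gave 10 with 1 probe set per gene, 3 with only the groups compared, 20 with array weights, 2 at 0.01 and 1 without the arrays of weak 5′ signal, and 2 to 14 when 1 array was left out. The causes were not tested. Over all probe sets DEGS1 against scramble called 1869, but 9061 without DEGS1 array 1 and 10150 with array weights. Median centring moved the share of calls that were higher from 58.3% to 69.4% in SPTLC123 against scramble and from 42.7% to 31.7% in DEGS1 against SPTLC123. Signal near background limits MT1M in scramble and DEGS1, and the dim MT1G and SLC30A1 probe sets.

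The groups share replicate numbers. Deviations of same-numbered arrays from their group means correlated between −0.493 and 0.696 over all probe sets, so the numbers were not taken to pair the samples, and not every array correlated best with its own number. With a replicate block the 18 probe sets gave 8 calls and the list genes 3 in SPTLC123 against scramble. The block added calls for the brighter MT1E and MT1F probe sets, MT1G and MT1H (adjusted p = 0.0206, 0.0202, 0.0484 and 0.0413 in limma). Over the 10 metallothionein x_at probe sets alone, same-numbered scramble and SPTLC123 arrays correlated at 0.193 to 0.369. That correlation leaves out any shift that the 10 share on an array. Their median deviation from the group mean was 0.29, −0.67 and 0.38 on scramble arrays 1 to 3. It was 0.12, −0.48 and 0.36 on the SPTLC123 arrays, and −0.45, −0.08 and 0.55 on the DEGS1 arrays. These correlations were the only check of whether the numbers pair the samples, and no formal test was made. With the block DEGS1 gave 0 and 5 calls against scramble, and 1 and 6 against SPTLC123.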

Other observations

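Besides the 10 genes studied, 67 genes of the RefSeq promoter table held 4 or more metal response element cores in the 250 bases before a start. Metallothioneins outside the 10 were not left out of this search. The number 4 was chosen after the values were seen, and no test was made. With 3 or more cores, 260 other genes were measured. Of the 260, 10 were called higher and 9 lower in SPTLC123 against scramble (median −0.01). In DEGS1 against scramble 13 were called higher and 8 lower (median −0.02). Of the 67 genes, 44 were measured. In SPTLC123 against scramble 2 of these were called higher, BCL7B (0.51 ± 0.09, limma, adjusted p = 0.0149) and LRRC58 (0.69 ± 0.13, adjusted p = 0.018), and 0 lower, with a median difference of 0.05, where 6.42% of all genes were called by their brightest probe set. In DEGS1 against scramble CAMSAP3 (0.77 ± 0.16, adjusted p = 0.0333) and CDC34 (0.42 ± 0.09, adjusted p = 0.0357) were called higher and ZNF331 lower (−0.40 ± 0.09, adjusted p = 0.0498), where 5.16% of all were. None of these counts is read as a result about the genes. ZNF331 was also lower in DEGS1 than in SPTLC123 (−0.45 ± 0.09, adjusted p = 0.0306). Among the genes studied, the 3 metallothionein genes with a promoter entry differed by 0.79 to 1.15 between SPTLC123 and scramble.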
